A study of Mus musculus with 6 samples.

Results

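The genes described here are the translation initiation and elongation factors of the mouse, chosen by symbol: all listed genes whose symbol starts with Eif1 to Eif6, Eef1 or Eef2, apart from the antiviral kinase gene Eif2ak2. This rule found 62 of the 11162 genes in the table, and it used no measured value. RNA was measured in CD8 T cells from spleen that carried the reporter transgene Nur77-GFP (Tg(Nr4a1-EGFP)GY139Gsat), in which regulatory sequence of Nr4a1, a gene induced by T-cell receptor signals, drives green fluorescent protein. Cells of both groups were sorted as CD8+, Qa2hi, CD62Lhi and CD44lo, with OT-I (a transgenic T-cell receptor) named among the sorting features, and were then divided by reporter brightness into Nur77-GFP-hi (GFP-hi, n = 3) and Nur77-GFP-lo (GFP-lo, n = 3) samples. Strain, age, sex and any pooling of animals are not given in the sources used here, and nothing says that the samples of a group came from separate mice, so p-values measure the spread between these samples, which may be technical.

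Translation of an mRNA starts when a small ribosomal subunit carrying initiator tRNA, which is brought by eIF2, is loaded at the capped end of the message with the help of eIF1, eIF1A, eIF3 and the cap-binding complex eIF4F. eIF5 and eIF5B complete the joining of the large subunit, and eEF1 and eEF2 then deliver aminoacyl-tRNA and move the ribosome along. Naive T cells are known for low protein synthesis that increases greatly on activation, with eIF2B, eIF4E-binding proteins and the eIF2 kinases as control points.

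Values are RPKM, read numbers scaled to gene length and to library size. Levels are therefore set side by side between genes, although the gene lengths and the handling of shared reads are not given. Fold changes are GFP-hi over GFP-lo on the log2(RPKM + 1) scale, which understates the change of low genes, and p-values are from limma, adjusted by Benjamini-Hochberg over the 9351 genes with a mean of at least 1 RPKM. The depth recovered from the values was 26170000 to 35940000 reads per library, so a level of 1 RPKM rested on 26.17 to 35.94 reads per kilobase of transcript. Of the CD8 T cell markers, 7 of 8 were listed, with summed levels of 1906.78 to 2016.68 RPKM in GFP-hi and 1875.64 to 1926.99 RPKM in GFP-lo libraries. Of the B cell markers, 2 of 7 were listed, Cd79b at 12.02, 14.1 and 13.3 RPKM in GFP-hi against 11.1, 10.6 and 10.6 RPKM in GFP-lo libraries (limma, adjusted p = 0.075) and Ms4a1 below 1 RPKM in each library. Replicate 2 of each group stood apart by heat-shock genes, with Hspa1a at 1100 RPKM (GFP-hi) and 1234 RPKM (GFP-lo) against 152 to 235 RPKM in the other 4 libraries. Results that rest on these libraries are therefore given without them as well. RPKM scales each library to its own total, so total RNA per cell is not measured, and in bulk samples fewer cells of a type and less RNA per cell cannot be told apart.

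All 62 members had a mean of at least 1 RPKM and were tested, and none differed between GFP-hi and GFP-lo at an adjusted p under 0.05 (limma), whereas 3.95% of all genes tested did. At an unadjusted p under 0.05 there were 8 members higher in GFP-hi, against 12.9% of all genes tested, and 1 member lower, against 7.3%. These 9 members made up 14.5% of the 62, no more than the 20.2% found over all genes. Fold changes were small, from -0.29 for Eif5a2 to 0.30 for Eif4ebp1, and no member reached a 2-fold difference, as 32 of all genes tested did. The median absolute log2 fold change was 0.10 for the members and 0.09 for all genes tested.

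**Figure D1:**
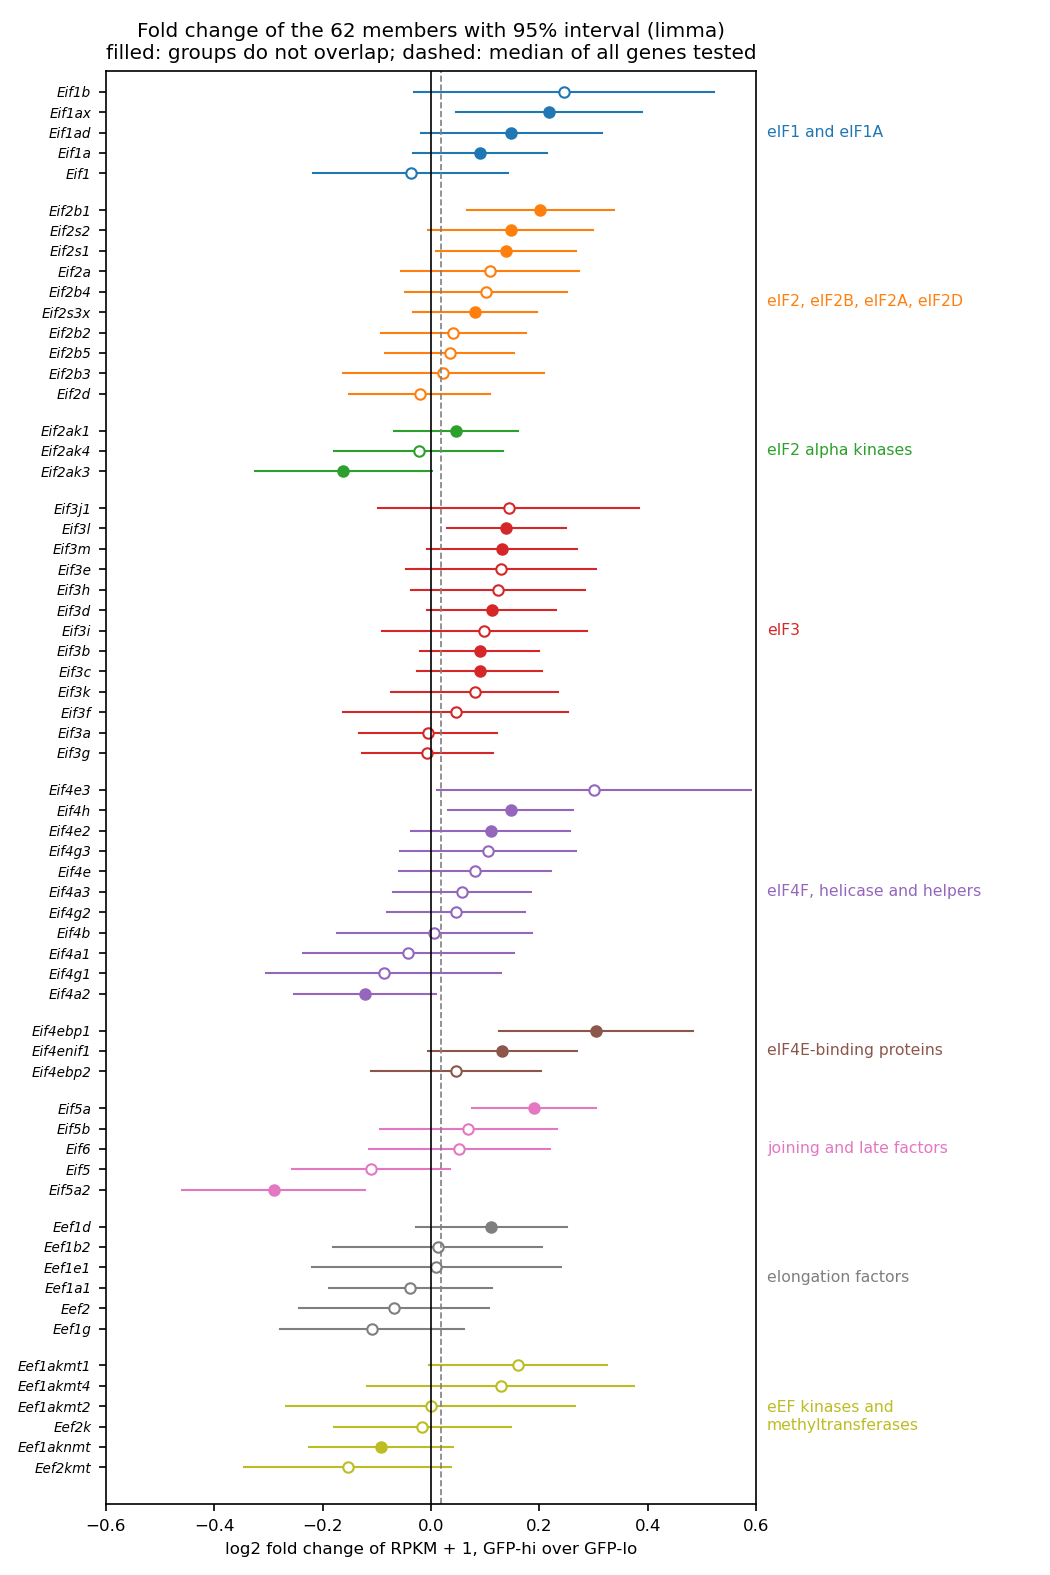
Log2 fold change of each of the 62 members (x axis, GFP-hi over GFP-lo, RPKM + 1) with its 95% interval from limma, grouped by role, with filled points where the 3 libraries of each group do not overlap and a dashed line at the median of all genes tested. Most points lie within 0.2 of 0, with Eif4ebp1, Eif4e3, Eif1b, Eif1ax and Eif2b1 farthest to the right and Eif5a2 farthest to the left.

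The signs were uneven. A positive log2 fold change was found for 44 of 62 members (71%), against 55.5% of all genes tested, and the median was 0.07, against 0.02 for all genes. The 3 GFP-hi libraries all lay above the 3 GFP-lo libraries for 19 members (30.6%), against 17.1% of all genes, and all below them for 4 members (6.45%), against 9.84%. These are counts over genes that share libraries, and they carry no test. GFP-hi replicate 2 was the highest of the 6 libraries for 37 members (59.7%), against 33.3% of all genes tested. Without that library the median of the members was 0.04 and that of all genes was 0.02, with 40 members positive. In the 4 libraries without replicate 2 of either group, 38 members were positive, the median was 0.05 against 0.01 for all genes, and again no member passed the threshold, as 0.556% (higher) and 0.524% (lower) of all genes did. A positive value was then found for 53.4% of all genes, and for 55.1% when GFP-hi replicate 2 alone was left out. A list of 23 listed heat-shock and immediate-early genes was also used as a covariate, through its mean log2 level in each library. It includes Nr4a1, the gene whose regulatory sequence drives the reporter, at 56.6, 90.9 and 37.0 RPKM in GFP-hi against 63.1, 84.9 and 33.8 RPKM in GFP-lo libraries, and Socs3, which itself passed the threshold between the groups (27.3, 45.6 and 36.6 against 63.4, 76.9 and 68.2 RPKM, limma adjusted p = 0.021), so the covariate is not independent of the groups. The call of Socs3 was lost without GFP-hi replicate 3 or any single GFP-lo library, with adjusted p values up to 0.083. With it 4 members were higher and none lower (background 5.53% and 2.79%; 55.3% of all genes positive). With array quality weights, which give outlying libraries less say, 6 were higher and 2 lower (background 8.37% and 5.34%; 56.2% positive). The analysis without a variance trend called 1 member lower (background 1.55%), and that without GFP-hi replicate 2 called 1 higher (background 2%). Under trimmed mean of M values scaling, calls over all genes were split more evenly, 2.15% higher and 1.99% lower with 47.6% positive, and 40 members were positive and none was called.

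**Figure D2:**
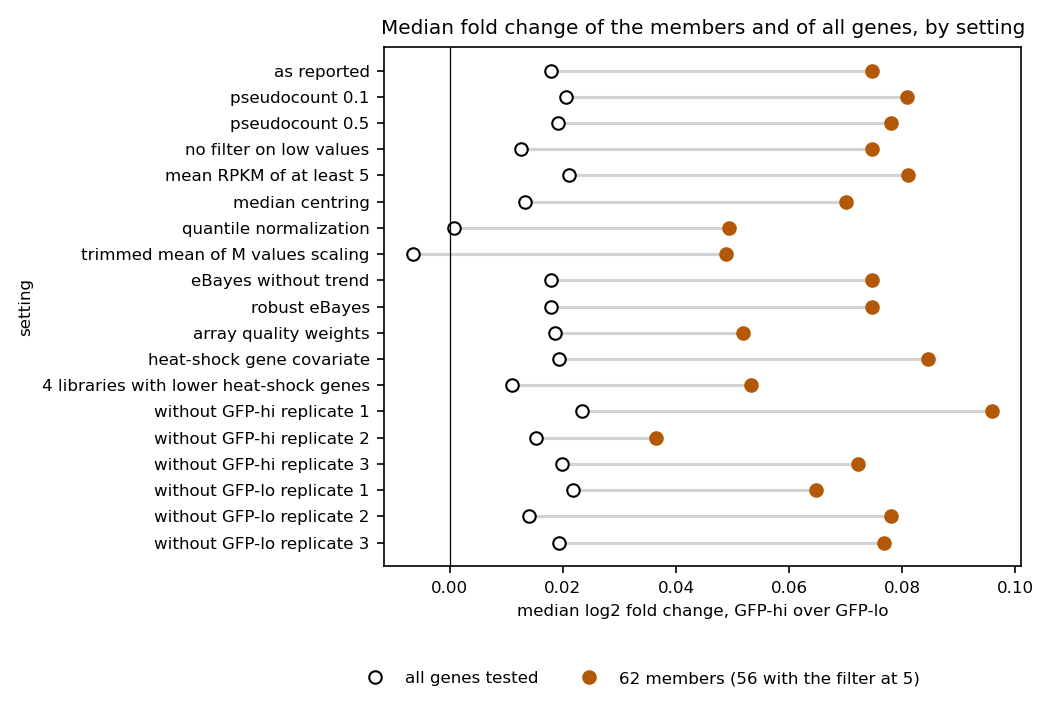
Median log2 fold change (x axis) of the members (filled) and of all genes tested (open) as reported and in each of the 18 alternative analyses (y axis). The members' median stayed above that of all genes in each of these analyses and came closest to it without GFP-hi replicate 2, at 0.04 against 0.02.

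Levels ranged from 1.04 RPKM for Eif5a2 to 320 RPKM for Eef1a1, averaged over the 6 libraries. The elongation factors Eef1a1, which delivers aminoacyl-tRNA, and Eef2 (237 RPKM), which moves the ribosome, stood first, followed by Eif1 (177 RPKM), which guards start codon choice, Eif5a (122 RPKM) and the eIF3 scaffold gene Eif3b (103 RPKM). Genes such as Eef1a1 have many near-identical pseudogenes, and how shared reads were assigned is not given, so their levels are uncertain. Together the members made up 1.36%, 1.40% and 1.38% of the RPKM summed over all listed genes in GFP-hi and 1.35%, 1.35% and 1.38% in GFP-lo libraries. The ranges overlapped.

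**Figure D3:**
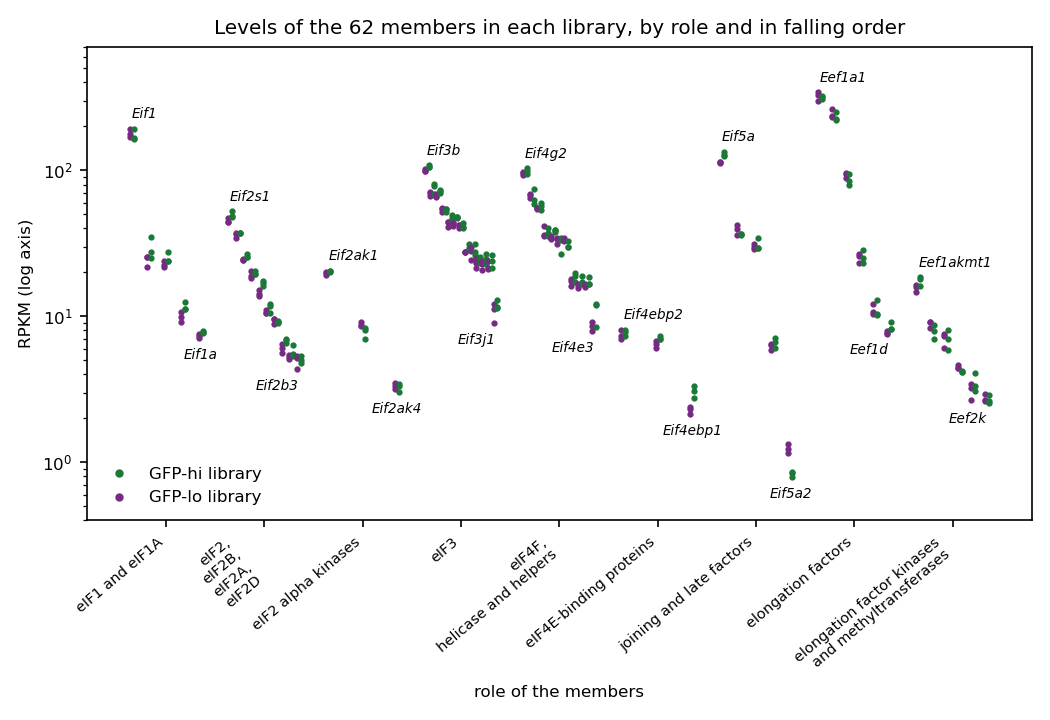
RPKM of each member in each library (log axis), in falling order within each role, with the highest and lowest member of each role named. The span between members is far wider than that between the 2 groups of libraries, and Eif5a2 is the lowest member.

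Among factors of the scanning ribosome, eIF1A is encoded by a pair of similar genes, Eif1a and the X-linked Eif1ax. Eif1ax had 11.2, 12.6 and 11.3 RPKM in GFP-hi and 9.15, 10.7 and 9.90 RPKM in GFP-lo libraries. The groups did not overlap, and the log2 difference was 0.22 ± 0.07 (SE; limma, adjusted p = 0.16). It was 0.14 with array quality weights and passed the threshold only with the heat-shock and immediate-early covariate, at 0.26 (adjusted p = 0.033). Elsewhere limma gave adjusted p values up to 0.32. Eif1a had 7.73, 7.99 and 7.83 RPKM against 7.10, 7.30 and 7.52 RPKM, with no overlap (limma, adjusted p = 0.40). Eif1b, a relative of Eif1, had 25.2, 35.1 and 27.5 RPKM in GFP-hi and 21.9, 25.7 and 25.5 RPKM in GFP-lo libraries. GFP-hi replicate 2 stood far above the rest, and the log2 difference of 0.25 ± 0.12 (SE; limma, adjusted p = 0.31) was 0.11 without it. Eif1 itself, at 164, 194 and 167 RPKM against 170, 191 and 177 RPKM, overlapped fully. In both groups its replicate 2 was the highest.

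eIF2 carries initiator tRNA and has an alpha, a beta and a gamma subunit, encoded by Eif2s1, Eif2s2 and the X-linked Eif2s3x. For each of the 3 subunit genes the GFP-hi libraries all lay above the GFP-lo libraries, as for 17.1% of all genes tested, and none passed the threshold. Eif2s1, whose product is the target of the stress kinases, had 48.8, 52.5 and 48.2 RPKM in GFP-hi and 44.3, 46.9 and 44.3 RPKM in GFP-lo libraries, a log2 difference of 0.14 ± 0.06 (SE; limma, adjusted p = 0.22). That value was 0.09 with array quality weights. Eif2s2 had 6.53, 7.01 and 6.85 RPKM against 5.61, 6.06 and 6.48 RPKM (limma, adjusted p = 0.26). Eif2s3x had 25.4, 26.9 and 25.5 RPKM against 24.4, 24.3 and 24.6 RPKM (limma, adjusted p = 0.41). The RPKM of the alpha subunit gene was thus 7.40 times that of the beta subunit gene over the 6 libraries. The gene lengths and the handling of shared reads behind these values are not given.

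eIF2B reloads eIF2 with GTP and is slowed when eIF2 alpha is phosphorylated. All 5 of its subunit genes were listed, from Eif2b5 (36.8 RPKM), which encodes the catalytic subunit, through Eif2b2 (19.6 RPKM), Eif2b1 (15.6 RPKM) and Eif2b4 (11.1 RPKM) to Eif2b3 (5.004 RPKM). Separate groups were found for 26.9% of all genes tested, and among these 5 only for Eif2b1, the gene of the regulatory alpha subunit. Eif2b1 had 16.1, 17.4 and 16.9 RPKM in GFP-hi and 13.8, 15.3 and 14.3 RPKM in GFP-lo libraries. On the log2 scale it differed by 0.20 ± 0.06 (SE; limma, adjusted p = 0.11). The call was made only with array quality weights (adjusted p = 0.033) and with the heat-shock and immediate-early covariate (adjusted p = 0.040). Leaving out single libraries gave limma adjusted p values up to 0.28. The catalytic subunit gene Eif2b5 lay at 37.3, 37.2 and 37.4 RPKM in GFP-hi and at 37.5, 34.7 and 36.9 RPKM in GFP-lo libraries, and the 95% interval of its log2 difference ran from -0.08 to 0.15.

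Of the eIF2 alpha kinases, Eif2ak3 encodes PERK, which responds to unfolded protein in the endoplasmic reticulum, Eif2ak4 encodes GCN2, which responds to uncharged tRNA, and Eif2ak1 encodes HRI, which responds to lack of heme. Eif2ak3 had 8.36, 7.02 and 8.08 RPKM in GFP-hi and 9.13, 8.64 and 8.78 RPKM in GFP-lo libraries. The GFP-hi libraries all lay below the GFP-lo libraries, with a log2 difference of -0.16 ± 0.07 (SE; limma, adjusted p = 0.25) that was -0.09 without GFP-hi replicate 2. Eif2ak1 was the most abundant of the 3 at 20.0 RPKM and lay from 20.3 to 20.5 RPKM in GFP-hi and from 19.1 to 20.1 RPKM in GFP-lo libraries. Eif2ak4, at 3.31 RPKM, overlapped between the groups.

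eIF3 is the large scaffold that holds the small subunit ready for the message, and 13 of its genes were listed. Of these 11 had a positive log2 fold change, 5 had GFP-hi libraries all above GFP-lo libraries (Eif3b, Eif3c, Eif3d, Eif3l and Eif3m), none had the reverse, and none passed the threshold. Over all genes tested 55.5% were positive, 17.1% lay all above and 9.84% all below. The median was 0.10, against 0.02 for all genes tested. Eif3l had 47.0, 47.6 and 47.6 RPKM in GFP-hi and 43.5, 43.6 and 41.9 RPKM in GFP-lo libraries. The libraries of each group lay close together, at 47.4 ± 0.333 RPKM in GFP-hi against 42.99 ± 0.966 RPKM in GFP-lo (SD, n = 3 each). The log2 difference was 0.14 ± 0.05 (SE; limma, adjusted p = 0.16), and it passed the threshold with array quality weights (0.14, adjusted p = 0.034). No other alternative called Eif3l, with limma adjusted p values up to 0.40. The core subunit genes Eif3a and Eif3g had values near 0, at -0.01 and -0.01 on the log2 scale. By level Eif3b (103 RPKM), Eif3h (72.5 RPKM) and Eif3c (69.6 RPKM) led, and Eif3j1 (11.4 RPKM), which encodes a loosely held subunit, stood last, so subunits of the same complex differed 9.08-fold in transcript level. Eif3j1 has a near-identical copy elsewhere in the mouse genome, so its own value is uncertain.

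The cap-binding complex eIF4F joins the cap-binding protein eIF4E, the scaffold eIF4G and the helicase eIF4A, with eIF4B and eIF4H as helpers of the helicase. Eif4h had 39.0, 38.7 and 37.6 RPKM in GFP-hi and 35.8, 34.3 and 33.8 RPKM in GFP-lo libraries. Its groups did not overlap, and the log2 difference was 0.15 ± 0.05 (SE; limma, adjusted p = 0.16; 0.14 with array quality weights, adjusted p = 0.041). The threshold was passed in no other alternative, with limma adjusted p values up to 0.38. The partner gene Eif4b overlapped fully, at 35.7, 40.5 and 37.3 RPKM against 41.7, 35.9 and 35.5 RPKM. Of the helicases, Eif4a1 was the most abundant with 62.5, 74.3 and 59.2 RPKM against 67.3, 69.1 and 64.6 RPKM, and the groups overlapped. Eif4a3, whose product marks exon junctions rather than caps, had a mean of 55.9 RPKM. Eif4a2, which differs from Eif4a1 in having been linked to repression of messages, had 29.7, 32.6 and 30.04 RPKM in GFP-hi and 34.5, 33.4 and 32.7 RPKM in GFP-lo libraries. It was lower in the 3 GFP-hi libraries by a narrow margin, with a log2 difference of -0.12 ± 0.06 (SE, limma adjusted p = 0.28). The threshold was passed only with array quality weights (-0.14, adjusted p = 0.047), and other alternatives gave adjusted p values up to 0.54.

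Of the 3 eIF4E genes, Eif4e (16.7 RPKM) and Eif4e2 (16.9 RPKM) lay close together, and Eif4e3 had 9.74 RPKM over the 6 libraries. eIF4E3 is an unusual cap binder that is not held by eIF4E-binding proteins. Eif4e3 had 12.2, 8.52 and 11.97 RPKM in GFP-hi and 7.92, 8.60 and 9.22 RPKM in GFP-lo libraries. GFP-hi replicate 2 lay among the GFP-lo libraries, whereas the other GFP-hi libraries lay above all of them. The log2 difference was 0.30 ± 0.13 (SE; limma, adjusted p = 0.23). It was 0.45 and past the threshold without GFP-hi replicate 2 (adjusted p = 0.020), 0.39 with array quality weights (adjusted p = 0.013) and 0.46 in the 4 libraries without replicate 2 of either group (adjusted p = 0.078). Among the scaffold genes Eif4g2 led with 97.3 RPKM, ahead of Eif4g1 (32.5 RPKM) and Eif4g3 (17.9 RPKM). Eif4g2 encodes a shorter relative that lacks the eIF4E-binding part. All 3 scaffold genes overlapped between the groups, and Eif4g1 in GFP-hi replicate 2, at 26.9 RPKM, lay below the 31.5 to 34.7 RPKM of the other 5 libraries.

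eIF4E-binding proteins block the cap complex until they are phosphorylated by mTOR. Eif4ebp1 (chromosome 8, 27260327 to 27275656) had 3.08, 3.36 and 2.74 RPKM in GFP-hi and 2.15, 2.38 and 2.31 RPKM in GFP-lo libraries. The groups did not overlap, and averaged 3.06 ± 0.309 RPKM in GFP-hi against 2.28 ± 0.119 RPKM in GFP-lo (SD, n = 3 each). The log2 difference of 0.30 ± 0.08 (SE; 95% interval from 0.13 to 0.48) was the largest of the members with a pseudocount of 1, and its adjusted p was 0.075 (limma). Without GFP-hi replicate 2 it was 0.25, below the 0.45 of Eif4e3, and with a pseudocount of 0.1 it was 0.40, smaller in size than the -0.52 of Eif5a2. It passed the threshold only with the heat-shock and immediate-early covariate, at 0.33 (adjusted p = 0.037). Other alternatives gave limma adjusted p values up to 0.23. Eif4ebp2, the more abundant gene of the pair, had 7.87, 8.10 and 7.36 RPKM against 8.10, 7.03 and 7.37 RPKM and overlapped. Eif4ebp1 thus supplied 28.1%, 29.3% and 27.1% of the RPKM of the pair in GFP-hi and 21.0%, 25.3% and 23.9% in GFP-lo libraries. Eif4enif1, which encodes the nuclear carrier of eIF4E, had 7.30, 7.01 and 6.99 RPKM against 6.42, 6.04 and 6.73 RPKM, with no overlap (limma, adjusted p = 0.27).

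eIF5A helps the ribosome through difficult peptide bonds and is the only known protein that carries hypusine, a modified lysine. It is encoded by Eif5a and by the related gene Eif5a2, and these paralogues stood on opposite sides. Eif5a (chromosome 11, 69916712 to 69921958 on GRCm38.p6) had 126, 134 and 128 RPKM in GFP-hi and 113, 114 and 114 RPKM in GFP-lo libraries. All GFP-hi libraries lay above the GFP-lo libraries, which were within 1 RPKM of each other, and averaged 130 ± 3.96 RPKM in GFP-hi against 113 ± 0.229 RPKM in GFP-lo (SD, n = 3 each). The log2 difference was 0.19 ± 0.05 (SE; 95% interval from 0.08 to 0.30, limma, adjusted p = 0.080). It was 0.17 with array quality weights (adjusted p = 0.017) and 0.20 with the heat-shock and immediate-early covariate (adjusted p = 0.036), both past the threshold. No other alternative passed it, and leaving out single libraries gave limma adjusted p values up to 0.23. Eif5a2 (chromosome 3, 28781032 to 28798846) had 0.797, 0.855 and 0.851 RPKM in GFP-hi and 1.34, 1.16 and 1.23 RPKM in GFP-lo libraries. All GFP-hi libraries lay below all GFP-lo libraries, at a depth of 22.7, 29.0 and 25.1 against 48.1, 33.0 and 32.2 reads per kilobase.

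The log2 difference of Eif5a2 was -0.29 ± 0.07 (SE; 95% interval from -0.46 to -0.12, limma, adjusted p = 0.073), the smallest p of the members. Because Eif5a2 lies near 1 RPKM, that value depends on the pseudocount, and it was -0.52 with a pseudocount of 0.1 (adjusted p = 0.079). Eif5a2 met the filter only through GFP-lo, with means of 1.24 RPKM there and 0.834 RPKM in GFP-hi. Without a filter its adjusted p was 0.084 (limma). It passed the threshold without the variance trend (adjusted p = 0.035) and with array quality weights (-0.27, adjusted p = 0.023). No other alternative passed it, and leaving out single libraries gave limma adjusted p values from 0.11 to 0.21. With a filter at 5 RPKM Eif5a2 was not tested. The share of Eif5a2 in the summed RPKM of both genes was 0.627%, 0.634% and 0.658% in GFP-hi and 1.17%, 1.01% and 1.07% in GFP-lo libraries. In all 6 libraries Eif5a was therefore by far the main transcript. The genes of the enzymes that make hypusine, Dhps and Dohh, overlapped between the groups, with means of 12.4 and 10.6 RPKM over the 6 libraries.

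**Figure D4:**
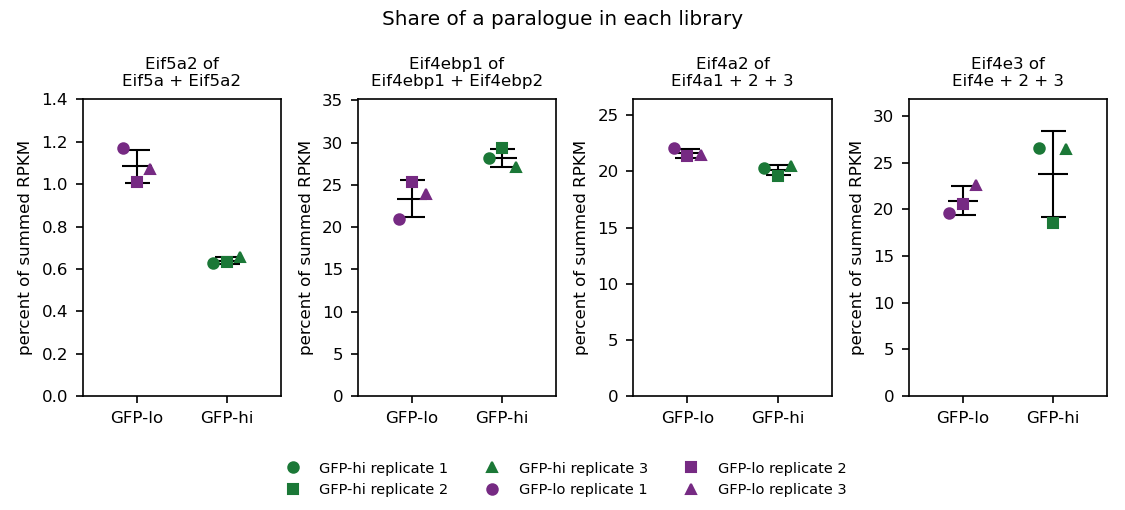
Share of a paralogue in the RPKM summed over its set (y axis, percent) in each library, with the mean and SD of the 3 libraries of each group. Eif5a2 is at 0.627% to 0.658% in GFP-hi and at 1.01% to 1.17% in GFP-lo libraries, Eif4ebp1 and Eif4a2 do not overlap either, and Eif4e3 overlaps through GFP-hi replicate 2. The shares of Eif4a1, Eif4g2 and Eif1ax in their sets were also computed, are not drawn, and overlap between the groups.

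Of the remaining late factors, Eif5, which triggers GTP hydrolysis by eIF2, had 36.2, 36.4 and 36.5 RPKM in GFP-hi and 36.3, 42.2 and 39.7 RPKM in GFP-lo libraries. GFP-lo replicate 1 lay within the GFP-hi range, and the log2 difference of -0.11 ± 0.06 (SE; limma, adjusted p = 0.39) was -0.06 without GFP-lo replicate 2 and -0.17 without GFP-lo replicate 1. Eif5b (6.42 RPKM) and Eif6 (30.6 RPKM), whose product keeps large subunits from joining too early, overlapped between the groups.

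The elongation factors showed no common direction, with 3 of 6 positive, against 55.5% of all genes tested, and a median of -0.01. Eef1a1 had 306, 323 and 317 RPKM in GFP-hi and 301, 330 and 344 RPKM in GFP-lo libraries. The GFP-hi range lay within the GFP-lo range, and the 95% interval of the log2 fold change ran from -0.19 to 0.11. Eef2 had 220, 250 and 224 RPKM against 264, 234 and 231 RPKM, with an interval from -0.24 to 0.11. The eEF1 exchange subunits had 89.7 RPKM for Eef1g, 25.4 RPKM for Eef1b2 and 8.13 RPKM for Eef1d, and 11.1 RPKM were found for Eef1e1, which encodes a protein of the tRNA synthetase complex. Of these Eef1d alone had separate groups, which were found for 26.9% of all genes tested. Eef1d had 8.16, 9.08 and 8.23 RPKM in GFP-hi and 7.63, 7.99 and 7.72 RPKM in GFP-lo libraries (limma, adjusted p = 0.36).

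Of the enzymes that act on elongation factors 6 were listed, with means from 2.72 RPKM for Eef2k to 16.6 RPKM for Eef1akmt1. Eef2k, whose kinase stops eEF2, had 2.56, 2.63 and 2.91 RPKM in GFP-hi and 2.94, 2.66 and 2.63 RPKM in GFP-lo libraries and overlapped. The eEF2 methyltransferase gene Eef2kmt had 7.01, 8.74 and 7.95 RPKM against 9.17, 8.28 and 9.19 RPKM. Its groups overlapped through replicate 2, and the log2 difference of -0.15 ± 0.08 (SE; limma, adjusted p = 0.36) was -0.08 without GFP-hi replicate 1 and -0.27 in the 4 libraries without replicate 2 of either group. Eef1aknmt, at 4.13, 4.24 and 4.14 RPKM against 4.45, 4.40 and 4.68 RPKM, was lower in the 3 GFP-hi libraries (limma, adjusted p = 0.43). Eef1akmt1 overlapped between the groups.

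**Figure D5:**
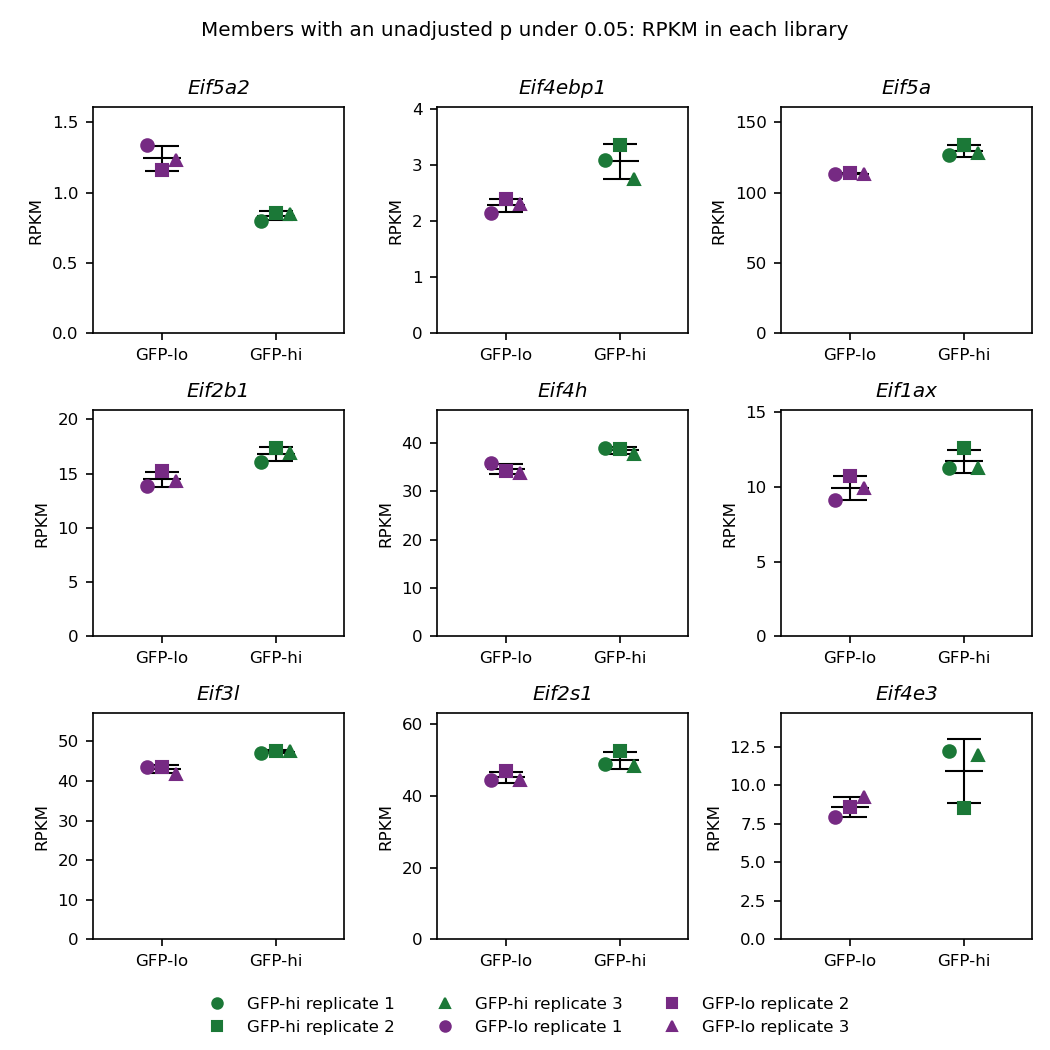
RPKM in each library (y axis from 0) of the 9 members with an unadjusted p under 0.05, none of which passed the adjusted threshold, with the mean and SD of the 3 libraries of each group. The groups are separate for 8 of these members, and for Eif4e3 GFP-hi replicate 2 lies among the GFP-lo libraries. Choice by p favours separate groups, so this count adds nothing to the p-values. Over all genes tested 26.9% have separate groups.

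Start-site sequence was examined as a property that the choice of members had not used. RefSeq windows from 250 bases before to 50 bases after an annotated start (build GRCm38.p6, the assembly also called mm10) were at hand for 50 of the 62 members. The letters CACGTG, known as the E-box bound by Myc and related factors and read the same on both strands, occurred in the windows of 14 of these 50 genes (28%), against 12% of the 9005 listed genes with a window and 8.09% of all genes in the promoter table. By window it was 24.6% of those of the members and 10.2% of those of listed genes. A match is a description and shows no binding. Members with CACGTG had a median log2 fold change of 0.02 with 7 of 14 positive, and members whose windows lacked it had a median of 0.06 with 26 of 36 positive. Over all genes tested the median was 0.02 and 55.5% were positive. Whether the letters go with the fold change was not tested. The letters also occurred for Eef1akmt4, Eef1aknmt, Eef2, Eef2k, Eif1b, Eif3a, Eif3f, Eif3k, Eif4a1, Eif4e and Eif4g1, whose sequences are not shown. Both eIF5A genes, which stood on opposite sides, and Eif4h held the letters and had an unadjusted p under 0.05 (limma). Only these were picked for display, with the letters in capitals 5′ to 3′ on the strand of the gene.
Eif5a, chr11:69921443-69921472, minus strand, 74 bases before an annotated start: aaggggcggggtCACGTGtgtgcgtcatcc
Eif5a, chr11:69920791-69920820, minus strand, 178 bases before another annotated start: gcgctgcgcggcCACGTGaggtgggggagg
Eif5a2, chr3:28781148-28781177, plus strand, 117 bases before an annotated start: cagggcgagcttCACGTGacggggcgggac
Eif5a2, chr3:28781123-28781152, plus strand, 142 bases before an annotated start: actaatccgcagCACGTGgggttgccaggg
Eif4h, chr5:134639488-134639517, minus strand, 96 bases before an annotated start: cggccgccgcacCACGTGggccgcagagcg

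Many mRNAs of the translation machinery begin with a C and a run of pyrimidines, the terminal oligopyrimidine pattern through which mTOR controls their translation. With a C and at least 4 further pyrimidines at the annotated first base, the pattern was found in 2 of the 50 members (4%), Eif3f and Eif2s3x, against 2.97% of listed genes. The share is near that of all listed genes, and it depends on how exactly the annotated first base marks the true start. A low share here therefore does not show that the members lack the pattern. The 12 members without a window, among them Eef1d, Eef1g, Eif4ebp1 and Eif4e3, could not be scored. The sequences from 15 bases before the start to 15 bases from it on follow, with the run of 11 pyrimidines in capitals.
Eif3f, chr7:108934400-108934429, plus strand: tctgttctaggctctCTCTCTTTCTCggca
Eif2s3x, chrX:94212637-94212666, minus strand: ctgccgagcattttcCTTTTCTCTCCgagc
Eif3f overlapped between the groups, at 26.5, 31.4 and 27.4 RPKM in GFP-hi and 24.5, 29.9 and 28.2 RPKM in GFP-lo libraries.

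Other genes of translation were counted for comparison, from fixed lists. Of 13 genes of termination, recycling and poly(A) binding, none passed the threshold, and their median log2 fold change was 0.08. Of 10 mitochondrial translation factors none passed, with 10 positive and a median of 0.06. Of 9 enzymes that modify eIF5A and eEF2 none passed, with 3 positive and a median of -0.06. Over all genes tested 55.5% were positive and the median was 0.02. Of 22 cytoplasmic tRNA synthetase and scaffold genes, 1 was lower and none higher, against 1.49% and 2.46% of all genes tested, and the median was 0.03. That gene was Vars, the valyl-tRNA synthetase gene, with 41.6, 40.3 and 46.0 RPKM in GFP-hi and 55.9, 49.8 and 54.7 RPKM in GFP-lo libraries. It fell by 0.32 on the log2 scale (SE 0.07; limma, adjusted p = 0.048), and the call was lost without any single library, with adjusted p values up to 0.16.

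Of 22 tested genes that act upstream of eIF4F and eIF2, 1 was lower and none higher, against 1.49% and 2.46% of all genes tested. Their median was 0.02. Impact, which encodes an inhibitor of GCN2 activation, had 4.49, 4.28 and 4.57 RPKM in GFP-hi and 5.79, 5.38 and 5.77 RPKM in GFP-lo libraries. It fell by 0.29 on the log2 scale (SE 0.06; limma, adjusted p = 0.040). All GFP-hi libraries lay below all GFP-lo libraries, but this call too was lost when any single library was left out, with adjusted p values up to 0.14.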

How the data were processed

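Deposited values were RPKM in 1 column per sample, per the file headers; STAR and the build mm10 are named in the submitters' processing notes, and the read counter, the annotation and the handling of reads that match several gene copies are not given in the sources used here. Per the labels' protocols, RNA was converted by SMART-seq v4 and libraries were prepared by NexteraXT. Columns were matched to samples by title. For 14 genes the symbol had become a date and was restored by Entrez ID. Depth was recovered from the step of a single read over 727 genes with a single GENCODE M21 transcript, where 91.7% to 94.6% of values lay within 0.1 of a whole read. Genes averaging 1 RPKM or more (9351) were tested in R 4.3.3 by limma 3.58.1, two-sided, on log2(RPKM + 1) values, using lmFit, then eBayes with its trend option, without covariates; p-values were adjusted over all these genes (Benjamini-Hochberg, threshold 0.05). The fit was tested on 5 simulated data sets of independent genes, in which 200 genes were shifted 2-fold in RPKM + 1. No member differed that much, so the simulation does not cover differences of the size seen in the members. Replicate numbers follow record order, and no source ties a GFP-hi to a GFP-lo library, so they were not used as pairs. Same-numbered libraries were nevertheless alike in Hspa1a and Nr4a1 levels, so shared mice or sorting days are possible, and the fit and the overlap counts ignore any such pairing. Fold changes are given for members with an unadjusted p under 0.05 and for the 5 largest in each direction, other values by role, level and paralogue set, and up to 4 passing genes from each other list. The members and lists were chosen with earlier results of these data known. Start-site windows came from a RefSeq table (GRCm38.p6). The 18 alternatives changed the pseudocount, filter, scaling, variance model, covariate and samples. Figures were drawn with matplotlib 3.10.9.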

Additional observations from a re-analysis of the deposited data

How the results depend on the processing

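The median log2 fold change of the 62 members was positive in all 18 alternatives, from 0.04 without GFP-hi replicate 2 to 0.10 without GFP-hi replicate 1, and each of the 14 members given with a fold change and an error kept its sign. With array quality weights 6 members were higher and 2 lower (8.37% and 5.34% of all genes tested), and with the heat-shock and immediate-early genes as a covariate 4 were higher and 0 lower (5.53% and 2.79%). Without the variance trend 1 member was lower. Leaving out each library gave from 0 to 1 members higher and from 0 to 0 lower, the single call being Eif4e3 without GFP-hi replicate 2. In the other translation lists, which held 13, 22, 9, 22 and 10 tested genes, 0 genes were higher and 2 lower. These became 4 higher and 5 lower with array quality weights, 3 higher and 3 lower with that covariate, 3 lower under TMM (trimmed mean of M values), 1 lower without a filter, 1 lower without the trend, and 0 lower with a filter at 5 RPKM, in the 4 libraries without replicate 2 of either group, and without each library in turn (from 0 to 0). Of all genes tested, 2.46% were higher and 1.49% lower in the analysis as reported. These shares also rose, to 8.37% and 5.34% with array quality weights and to 5.53% and 2.79% with that covariate. The rises in the lists were thus not particular to translation genes, and no test compared the lists with all genes. The cause of the differences between these analyses was not tested. Under TMM the median of all genes was -0.01 and 40 members were positive. No paired analysis was run, because the labels give no replicate numbers and record order alone does not pair libraries, so how pairing would move these counts is not known. At 3 libraries a group, differences near the size of the standard errors, 0.05 to 0.13 on the log2 scale, could not be told from the spread.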
